A study of Mus musculus with 75 samples.

Results

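The imprinted Dlk1-Meg3-Dio3 domain of mouse chromosome 12 was followed through all 26 RNA sequencing libraries of a study of the DNA methyltransferase DNMT3A in mouse brain. Its 6 members, Dlk1, Meg3, Rian, Mirg, Rtl1 and Dio3, were taken by name and matched to the Ensembl identifiers of the count files. The 20 cortex and nuclei files list 37310 identifiers and hold 4 of the members (Dlk1, Meg3, Rtl1 and Dio3). The 6 hippocampus files list 55487 identifiers and hold all 6, so Rian and Mirg were measured in hippocampus. Another 4690 identifiers of the cortex and nuclei files carry no symbol in the name table used, and whether reads of Rian or Mirg stand under one of these was not tested.

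All mice were C57BL/6 at postnatal day 21. The mutants were Dnmt3a1-/-, which lacks the long DNMT3A isoform, Dnmt3a2-/-, which lacks the short one, and Dnmt3a1_delta_N, named for a deletion in the N-terminal region of DNMT3A1. Cerebral cortex gave 3 Dnmt3a1-/- libraries (set against 3 wild type libraries with plain numbers), 2 Dnmt3a2-/- (against 2 wild type libraries numbered with r) and 3 Dnmt3a1_delta_N (against 3 wild type libraries numbered with n). Hippocampus gave 3 Dnmt3a1-/- and 3 wild type libraries, and cortical neuron nuclei sorted by NeuN gave 2 of each. No label assigns a wild type series to a mutant, states how many animals stand behind a group, or gives the allele design or a Cre driver. The p-values therefore measure only the spread between these libraries. The 49 samples of other assays were not analysed here.

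Imprinted genes are read from the chromosome of one parent. In this domain the protein-coding genes Dlk1, Rtl1 and Dio3 are read mainly from the paternal chromosome, and Meg3, Rian and Mirg, long noncoding RNAs that host many small nucleolar RNAs and microRNAs, from the maternal one. Methylation of an intergenic control region on the paternal chromosome sets this pattern. In brain the domain is known for abundant Meg3 RNA in neuron nuclei and for a large cluster of neuronal microRNAs. The counts used here do not separate the parental alleles.

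The promoters of Meg3 and Dlk1, the members called higher in a mutant, are shown beside that of Dio3, which was not called. The RefSeq table of build GRCm38.p6 holds a promoter for 5 of the 6 members (not Rtl1), each running from 250 bases before to 50 bases after a transcript start. The 3 below lie on the plus strand, at chr12:109540746-109541045 (Meg3, the first of its 2 starts), chr12:109452573-109452872 (Dlk1) and chr12:110278980-110279279 (Dio3). Capitals mark TGCCGC, read on either strand, the hexamer bound by the imprinting factor ZFP57, and TGACGTCA, the palindromic cyclic AMP response element. The 2 motifs do not overlap each other in these windows.
Meg3: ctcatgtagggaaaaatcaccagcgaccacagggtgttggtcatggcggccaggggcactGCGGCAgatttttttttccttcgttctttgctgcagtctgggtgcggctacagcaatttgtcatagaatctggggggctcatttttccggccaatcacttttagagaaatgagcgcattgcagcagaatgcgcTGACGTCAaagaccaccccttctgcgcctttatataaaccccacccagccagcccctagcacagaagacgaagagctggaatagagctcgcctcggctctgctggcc
Dlk1: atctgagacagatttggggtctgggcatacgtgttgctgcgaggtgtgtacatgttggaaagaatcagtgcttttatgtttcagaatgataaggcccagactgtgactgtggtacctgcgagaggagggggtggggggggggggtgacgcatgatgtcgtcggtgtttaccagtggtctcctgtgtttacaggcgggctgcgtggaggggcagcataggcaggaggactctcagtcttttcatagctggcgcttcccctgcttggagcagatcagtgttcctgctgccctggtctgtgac
Dio3: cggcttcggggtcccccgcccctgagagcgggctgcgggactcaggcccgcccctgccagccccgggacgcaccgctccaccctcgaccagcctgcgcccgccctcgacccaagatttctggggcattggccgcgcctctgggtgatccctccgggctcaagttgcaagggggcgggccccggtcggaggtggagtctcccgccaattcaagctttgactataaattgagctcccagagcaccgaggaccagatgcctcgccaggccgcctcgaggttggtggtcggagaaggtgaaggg

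The Meg3 window shown held 1 match to each motif, the Dlk1 and Dio3 windows held none. Of 32851 promoters in the table, 11.6% held TGCCGC and 1.79% held TGACGTCA. CpG dinucleotides, the main substrate of DNMT3A, numbered 13 in the Meg3 window, 9 in the Dlk1 window and 25 in the Dio3 window, against a median of 7 over the table. As many or more were found in 37.9% of all promoters for Meg3, 45.8% for Dlk1 and 18.4% for Dio3. The window at the second Meg3 start, not shown, held neither motif and 1 CpG, and 94.6% of all promoters held as many CpG or more. Letters in a window say nothing of whether they are methylated or bound.

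Between 8.7 and 39.0 M gene counts were read per library. Levels are given as CPM, the counts of a gene per M gene counts of its library, which do not correct for gene length, so they are compared between libraries and not between genes. Dnmt3a itself measured 73.2 to 80.8 CPM in cortex Dnmt3a1-/- against 146 to 165 CPM in its wild type series, and 71.5 to 76.1 CPM in hippocampus Dnmt3a1-/- against 134 to 163 CPM. In the nuclei labelled Dnmt3a1-/- it stood at 369 and 382 CPM, against 399 and 405 CPM in wild type nuclei, and was not called lower (log2 fold change -0.10 ± 0.15 SE, adjusted p = 0.89). Since both isoforms share exons, this gene-level count is a weak check of the other 2 mutants. In these bulk samples, fewer cells of a type and less RNA per cell cannot be told apart.

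In cortex lacking DNMT3A1, Dlk1 and Meg3, a paternally and a maternally read member, were both higher than in wild type, and Dio3 was not. Dlk1 (ENSMUSG00000040856), a membrane protein with epidermal growth factor repeats related to the ligands of Notch, measured 7.75, 11.6 and 6.83 CPM in Dnmt3a1-/- cortex, against 2.66, 1.60 and 2.70 CPM in the plain wild type series. Every mutant library stood above every wild type library, and the means were 8.72 ± 2.52 and 2.32 ± 0.62 CPM (SD, n = 3 each), a ratio of 3.76. The log2 fold change was 1.94 ± 0.25 (SE, adjusted p = 0.00087), the 30th highest of 15933 genes tested.

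Meg3 (ENSMUSG00000021268), a long noncoding RNA retained in the nucleus, measured 1857, 1720 and 1668 CPM in Dnmt3a1-/- cortex and 1022, 1313 and 1062 CPM in the plain wild type series. Here too the lowest mutant library lay above the highest wild type one. The means were 1749 ± 97.3 and 1132 ± 158 CPM, and the log2 fold change was 0.62 ± 0.09 (adjusted p = 0.00085). Dlk1 and Meg3 were thus 2 of the 3 members tested that were called and whose libraries did not overlap, where 17.9% of all genes were called (8.95% called higher) and 36.1% did not overlap. A block on the replicate number raised the number of genes called to 4941, against 2845, and both members kept their calls.

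Dio3 (ENSMUSG00000075707), the deiodinase that inactivates thyroid hormone, measured 0.94, 1.56 and 0.64 CPM in Dnmt3a1-/- cortex and 1.64, 0.97 and 1.18 CPM in wild type. These libraries overlapped, and the log2 fold change of -0.24 ± 0.33 was not called (adjusted p = 0.66). Rtl1, a protein derived from a retrotransposon gag and known for its role in placental vessels, had too few counts to be tested (1, 13 and 4 in Dnmt3a1-/-, 3, 0 and 3 in wild type). It stayed as low in the other tissue libraries and was not tested there either, with 4 to 5 counts in Dnmt3a2-/- against 3 in each r library, 3 to 8 in Dnmt3a1_delta_N against 2 to 4, and 1 to 6 in hippocampus Dnmt3a1-/- against 1 to 3. The wild type library at 0 held 26.8 M gene counts, which allows a level of up to 0.112 CPM (3 counts, counting error only).

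**Figure D1:**
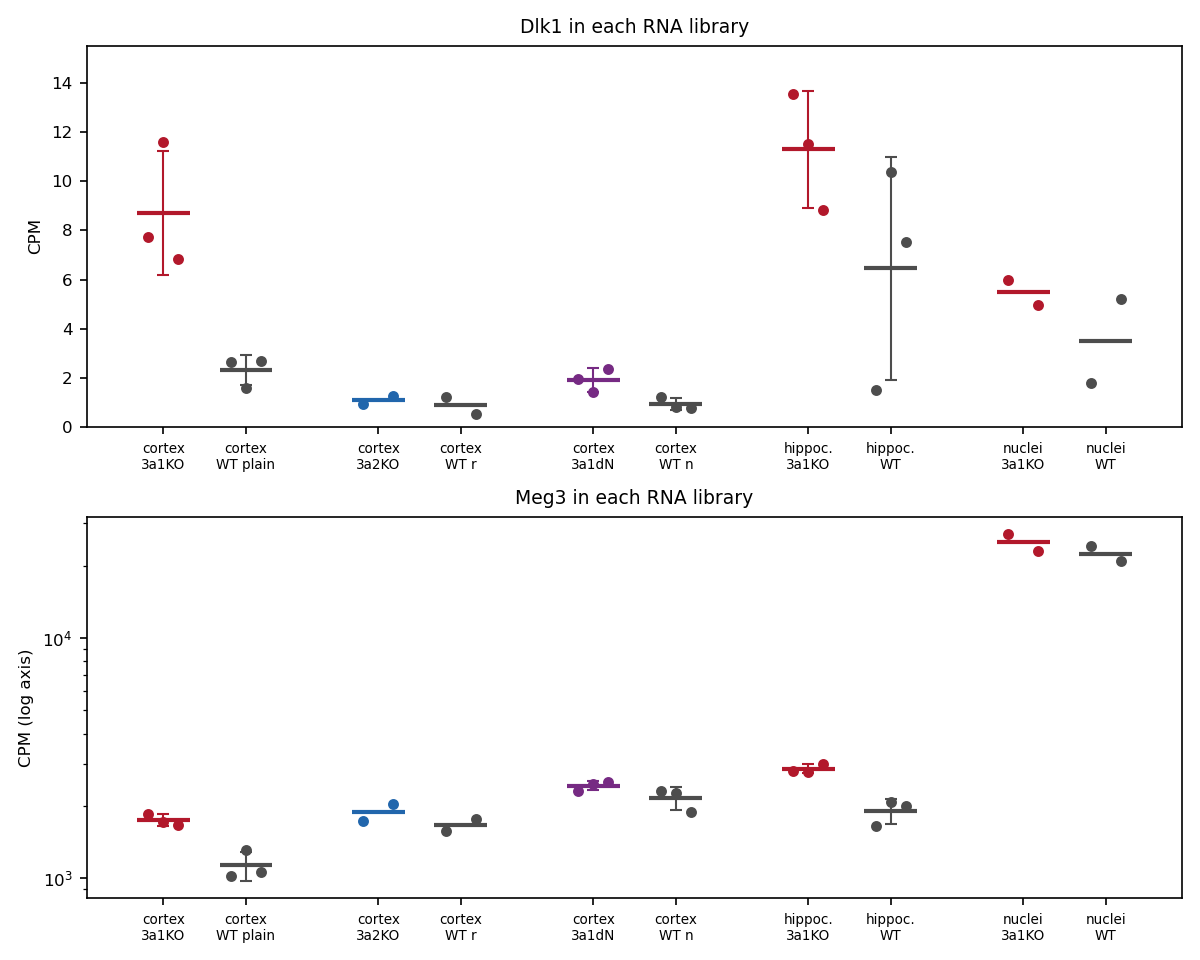
Dlk1 (upper panel, linear axis) and Meg3 (lower panel, log axis) in CPM for each of the 26 libraries, with each mutant (3a1KO, Dnmt3a1-/-; 3a2KO, Dnmt3a2-/-; 3a1dN, Dnmt3a1_delta_N) left of its own wild type series. Points are libraries, horizontal lines group means and vertical bars the SD where a group has 3 libraries; cortex Dnmt3a1-/- lies above the plain series in both panels, and Meg3 in the nuclei lies above every tissue library.

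The call of Meg3 in cortex depended on which wild type libraries were the control, and that of Dlk1 did not. Meg3 averaged 1132 CPM in the plain series, 1672 CPM in the r series and 2160 ± 232 CPM in the n series, and each pair of series differed (log2 fold changes of -0.53, plain over r, 0.36, n over r, and 0.89, n over plain, with adjusted p of 0.0043, 0.037 and 8.2e-05). The 3 Dnmt3a1-/- cortex libraries, at 1668 to 1857 CPM, overlapped the r series (1576 and 1767 CPM) and stood below the n series (1894 to 2313 CPM). Against all 8 wild type libraries the log2 fold change of Meg3 was 0.11 ± 0.23 (adjusted p = 0.76) and its call was lost.

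Dlk1 went the other way among wild types: it was higher in the plain series than in the r series (1.23 and 0.56 CPM) by 1.41 ± 0.35 on the log2 scale (adjusted p = 0.0076), and lower in the n series (1.24, 0.84 and 0.77 CPM) than in the plain series by a log2 difference of -1.29 ± 0.30 (adjusted p = 0.0068). The Dnmt3a1-/- libraries were above all 8 wild type libraries, and against them the log2 fold change of Dlk1 was 2.65 (adjusted p = 0.0016). Between the series, 22.8% to 31.7% of all genes were called. If a series was set against the wrong mutant, its own difference and the effect of the mutation cannot be told apart.

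In Dnmt3a2-/- cortex, none of the 3 members tested was called by edgeR, against 0.00628% of all genes (1 gene of 15929). Dlk1 measured 0.93 and 1.26 CPM in Dnmt3a2-/- and 1.23 and 0.56 CPM in the r series, and Meg3 at 1736 and 2030 CPM against 1576 and 1767 CPM. Dio3 measured 0.78 and 1.64 CPM against 0.91 and 1.08 CPM. All 3 members overlapped between the groups, where 27.4% of all genes did not, at log2 fold changes of 0.29 ± 0.39 (Dlk1), 0.16 ± 0.10 (Meg3) and 0.23 ± 0.36 (Dio3), each with an adjusted p of 1.00. At an unadjusted p under 0.05, 457 genes and 0 members passed, and DESeq2 called 7 genes and 0 members.

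In Dnmt3a1_delta_N cortex, edgeR called no gene (0% of 15881) and so none of the 3 members tested, but Dlk1 stood apart in level. It measured 1.95, 1.43 and 2.37 CPM in Dnmt3a1_delta_N, against 1.24, 0.84 and 0.77 CPM in the n series. Every mutant library was above every wild type one (12.8% of all genes did not overlap), and the means were 1.92 ± 0.47 and 0.95 ± 0.25 CPM, at a log2 fold change of 1.00 ± 0.27 (adjusted p = 0.46). A block on the replicate number brought the share of genes called to 0.749%, and the adjusted p of Dlk1 was then 0.072.

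Meg3 measured 2307, 2474 and 2508 CPM in Dnmt3a1_delta_N and 2313, 2274 and 1894 CPM in the n series, with 1 mutant library just under the highest wild type one (log2 fold change 0.19 ± 0.09, adjusted p = 0.65). Dio3 measured 0.82, 1.37 and 1.24 CPM against 0.79, 0.44 and 0.99 CPM, and overlapped (0.67 ± 0.32, adjusted p = 0.65). Both fold changes had a positive sign without passing the test. Against all 8 wild type libraries the log2 fold changes were 0.43 for Dlk1 and 0.56 for Meg3, neither called. At an unadjusted p under 0.05, 1267 genes passed, Dlk1 being the 1 member among them, and DESeq2 called 45 genes and 0 members.

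In hippocampus all 6 members could be read, and Meg3 was again higher without DNMT3A1. It measured 2807, 2770 and 2995 CPM in Dnmt3a1-/- hippocampus and 1654, 2078 and 1996 CPM in wild type, with no overlap. The log2 fold change was 0.56 ± 0.12 (adjusted p = 0.026), the single call among 5 members tested, where 2.52% of all genes were called (1.69% called higher) and 22.3% did not overlap. The call was lost without wild type replicate 2, wild type replicate 3, Dnmt3a1-/- replicate 2 or Dnmt3a1-/- replicate 3 (adjusted p from 0.052 to 0.10), while the log2 fold change stayed between 0.47 and 0.62.

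Rian (ENSMUSG00000097451), the host of a row of small nucleolar RNAs, measured 679, 625 and 648 CPM in Dnmt3a1-/- hippocampus and 479, 556 and 646 CPM in wild type. Mirg (ENSMUSG00000097391), the host of the microRNA cluster at the far end of the maternal transcripts, measured 31.3, 27.2 and 23.2 CPM in Dnmt3a1-/- and 23.3, 22.4 and 24.2 CPM in wild type. The groups overlapped for both RNAs, and neither was called, at log2 fold changes of 0.19 ± 0.11 each (adjusted p of 0.39 and 0.38).

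Dlk1 varied widely among the hippocampus libraries. It measured 13.6, 11.5 and 8.82 CPM in Dnmt3a1-/- and 1.50, 10.4 and 7.51 CPM in wild type, so the groups overlapped and the log2 fold change of 0.66 ± 0.52 was not called (adjusted p = 0.58). Without wild type replicate 1, the shallowest library of the study at 8.7 M gene counts, the log2 fold change was 0.28. Dio3 was lowest in the same wild type library: it measured 5.19, 3.69 and 1.08 CPM in Dnmt3a1-/- and 1.04, 4.77 and 4.91 CPM in wild type (log2 fold change -0.33 ± 0.68, adjusted p = 0.85).

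**Figure D2:**
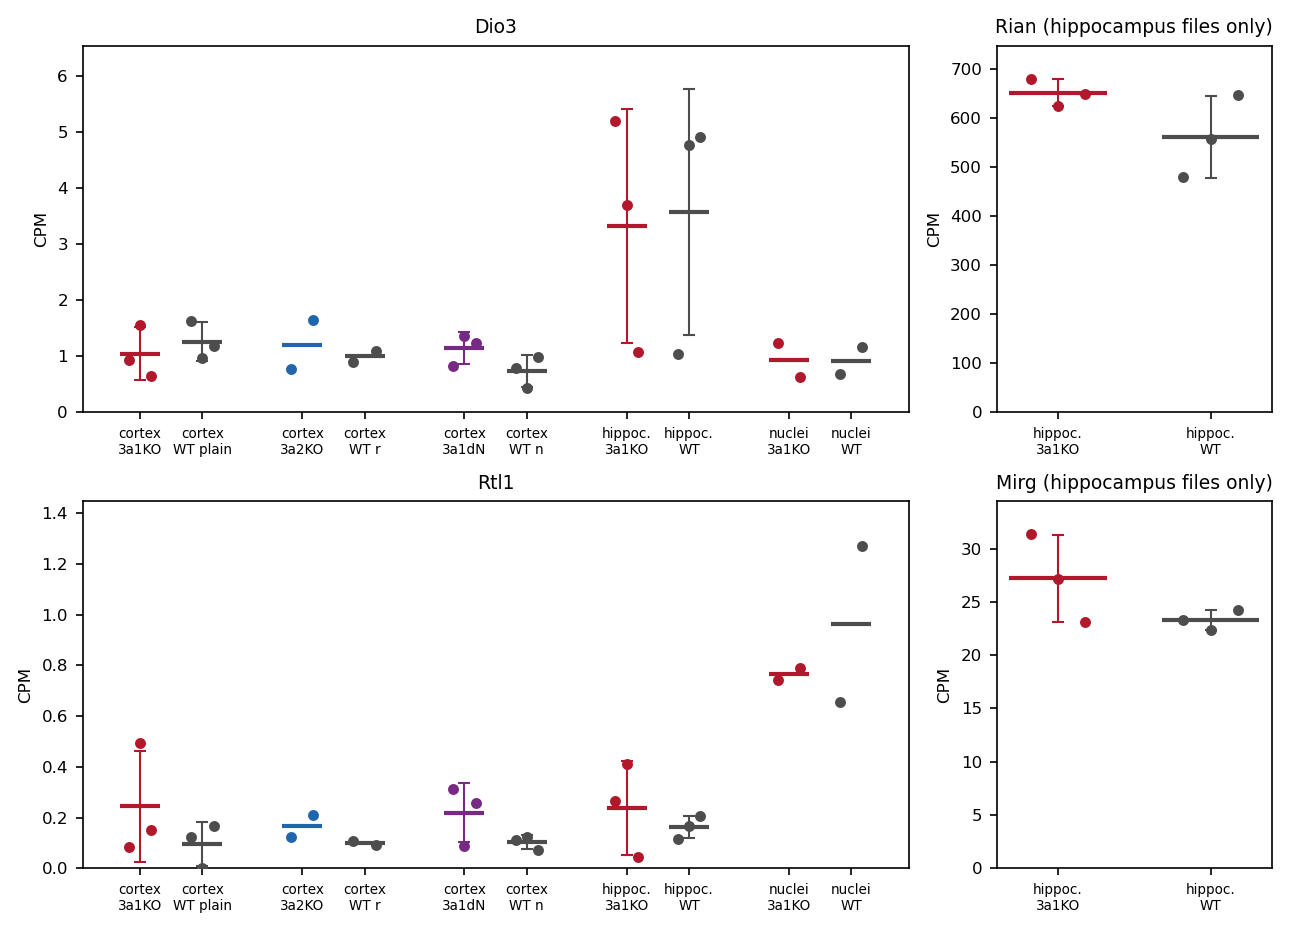
Dio3 and Rtl1 in CPM for each of the 26 libraries (left panels; 3a1KO, 3a2KO and 3a1dN stand for the 3 mutants) and Rian and Mirg in the 6 hippocampus libraries (right panels), with each mutant left of its own wild type series. Points are libraries, horizontal lines group means and vertical bars the SD where a group has 3 libraries; each mutant overlaps its own wild type for Dio3, Rian and Mirg, and Rtl1 lies highest in the nuclei.

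In neuron nuclei Meg3 had the most counts of all genes in each of the 4 libraries, in a ranking that does not correct for gene length. It took 2.72% and 2.30% of gene counts in the nuclei labelled Dnmt3a1-/- and 2.41% and 2.09% in wild type nuclei, which overlap, and the log2 fold change of 0.16 ± 0.18 was not called (adjusted p = 0.84). In cortex tissue the same RNA took 0.102% to 0.251% of gene counts and ranked between 20th and 66th by counts. None of the 4 members tested in nuclei was called by edgeR, where 0.246% of all genes were called and the libraries of 38.5% did not overlap. At an unadjusted p under 0.05, 1425 genes and 0 members passed, and DESeq2 called 69 genes and 0 members.

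Dlk1 measured 5.97 and 4.99 CPM in the nuclei labelled Dnmt3a1-/- and 1.79 and 5.20 CPM in wild type nuclei. Wild type replicate 2 stood with the mutants and replicate 1 below them (log2 fold change 0.66 ± 0.39, adjusted p = 0.68). Without wild type replicate 2 it was called (1.61 ± 0.32, adjusted p = 0.041). Rtl1 (ENSMUSG00000085925) measured 0.74 and 0.79 CPM against 0.65 and 1.27 CPM, and Dio3 at 1.23 and 0.63 CPM against 0.68 and 1.16 CPM. Both overlapped, at log2 fold changes of -0.33 ± 0.39 (adjusted p = 0.86) and 0.07 ± 0.40 (adjusted p = 0.98).

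**Figure D3:**
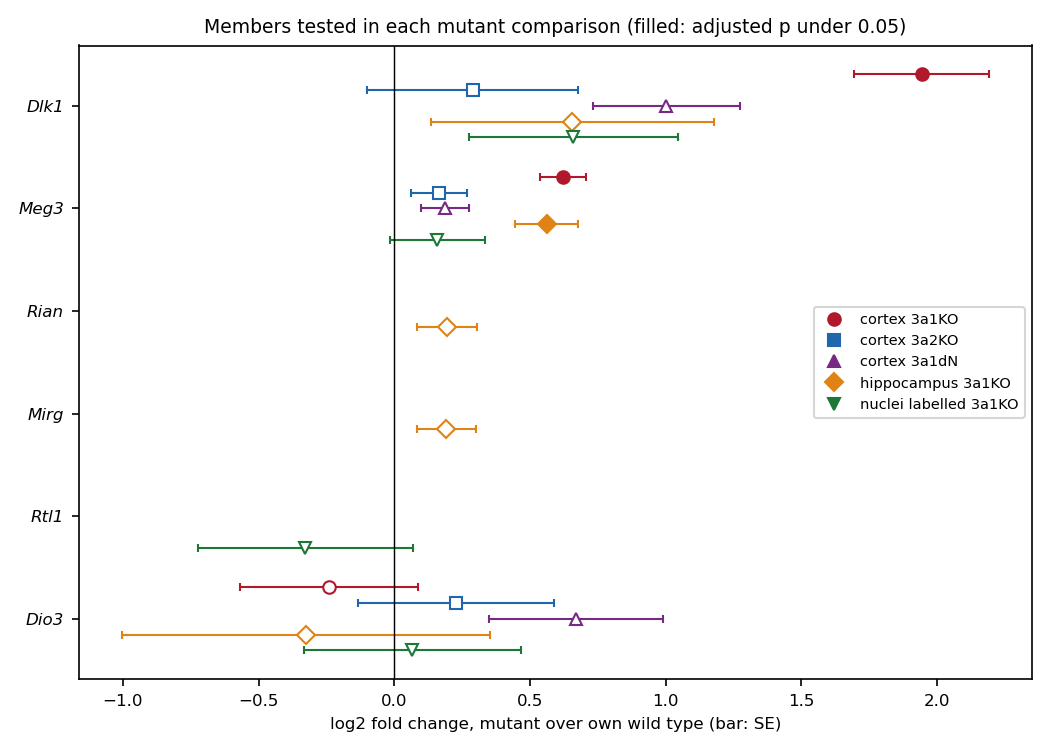
Log2 fold change, mutant over its own wild type, with its SE, for each member that could be tested in the 5 mutant comparisons. Filled symbols passed an adjusted p of 0.05: Dlk1 and Meg3 in Dnmt3a1-/- cortex and Meg3 in Dnmt3a1-/- hippocampus.

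Whether the effects differed between tissues or mutants was tested as an interaction, and no member was called in any of the 3 tests. The effect of Dnmt3a1-/- on Dlk1 in hippocampus minus that in cortex was -1.28 ± 0.65 on the log2 scale (adjusted p = 0.98) and that on Meg3 was -0.06 ± 0.15 (adjusted p = 0.997), where 0% of all genes were called. For nuclei minus cortex the values were -1.27 ± 0.56 for Dlk1 (adjusted p = 0.35) and -0.46 ± 0.18 for Meg3 (adjusted p = 0.27), with 0.341% of all genes called. With no filter on low counts the difference for Dlk1 passed (adjusted p = 0.00077), where 619 genes were called over all genes, against 59. At an unadjusted p under 0.05, 0 members passed for hippocampus and 2 (Dlk1 and Meg3) for nuclei, and DESeq2 called 0 members in either.

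The effect of Dnmt3a1-/- minus that of Dnmt3a1_delta_N in cortex was 0.94 ± 0.40 for Dlk1 (adjusted p = 0.39), 0.43 ± 0.13 for Meg3 (adjusted p = 0.23) and -0.92 ± 0.49 for Dio3 (adjusted p = 0.51), where 0.103% of all genes were called. At an unadjusted p under 0.05, 2 members (Dlk1 and Meg3) passed, and DESeq2 called 0. The call of Meg3 in Dnmt3a1-/- cortex and the missing call in Dnmt3a1_delta_N cortex are therefore not shown to differ.

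Across wild type tissues the members followed different orders. In wild type hippocampus over wild type cortex, Dlk1 was higher by 2.20 ± 0.50 and Dio3 by 1.87 ± 0.37 on the log2 scale (adjusted p of 0.0036 and 0.0011). These were 2 of the 3 members tested, and 42% of all genes were called (21.5% called higher) and 35.9% did not overlap. Hippocampus held 1.50 to 10.4 CPM of Dlk1 and 1.04 to 4.91 CPM of Dio3, against 0.56 to 2.70 CPM and 0.44 to 1.64 CPM in the 8 cortex libraries, so the ranges overlapped through wild type hippocampus replicate 1. Against the plain cortex series alone, Dlk1 missed the threshold (adjusted p = 0.061). The hippocampus files were counted over another list of genes than the cortex files, and tissue and preparation cannot be told apart.

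Meg3 in wild type hippocampus (1654 to 2078 CPM) lay within the range of the cortex series (1022 to 2313 CPM), and the log2 fold change of 0.18 was not called (adjusted p = 0.56); its sign turned with the reference, at 0.69 against the plain series and -0.20 against the n series. Wild type nuclei held more Meg3 than cortex tissue by 3.51 ± 0.24 on the log2 scale (adjusted p = 4.2e-08, ratio of means 13.6) and more Rtl1 by 2.97 ± 0.47 (adjusted p = 5.5e-05), without overlap. Rtl1 had 0 to 4 counts in the 8 wild type cortex libraries and 23 and 45 in wild type nuclei. It passed the low-count filter only through the nuclei, where it is high, so its call carries little weight. Dlk1 (1.03 ± 0.52, adjusted p = 0.089) and Dio3 (-0.37 ± 0.38, adjusted p = 0.38) were not called. Dlk1 passed without plain wild type replicate 1 (1.22, adjusted p = 0.039), plain replicate 3 (1.21, adjusted p = 0.040) or nuclei replicate 1 (1.59, adjusted p = 0.035). Here 79.4% of all genes were called (39.7% called higher) and 78.4% did not overlap, and sorting, nuclei and neurons cannot be told apart. The order of levels for Meg3 was thus nuclei first, with hippocampus and cortex not separated beyond the spread between cortex series.

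Rows of the count files for microRNA genes of the domain hold reads that fall in the hairpins' genes in a long RNA library, and not mature microRNAs. The RefSeq table lists 61 microRNA genes between Dlk1 and Dio3, with 113 mature sequences in 104 distinct seeds. Shown is 1 mature sequence for each of the 5 microRNA genes with the most reads over the 4 nuclei libraries, and for Mir382, which is described with the mutant nuclei, with the seed (bases 2 to 8) in capitals. The first 3 come from the group transcribed opposite Rtl1 and the others from the Mirg end of the cluster. No seed is shared among them.
mmu-miR-431-5p: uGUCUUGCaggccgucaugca
mmu-miR-433-3p: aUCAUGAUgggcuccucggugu
mmu-miR-127-3p: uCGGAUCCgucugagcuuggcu
mmu-miR-541-5p: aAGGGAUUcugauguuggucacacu
mmu-miR-382-5p: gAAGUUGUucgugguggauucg
mmu-miR-3072-3p: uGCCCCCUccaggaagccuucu

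Like Meg3, these rows were high in nuclei. The 6 listed genes from Mir431 to Mir3071, called here those opposite Rtl1, include Mir3071 on the minus strand, with the others on the plus strand. They summed to 10.9 and 13.2 CPM in the nuclei labelled Dnmt3a1-/- and to 13.2 and 10.3 CPM in wild type nuclei, against 0.25 to 1.13 CPM in the 16 cortex libraries. In wild type nuclei over wild type cortex, 13 of 15 testable small RNA genes from Mir431 to Mir3072 were called higher and none lower. Small RNA genes of the domain outside this stretch, such as Mir540 and Mir665, were not in this set. Among them were Mir433 (4.63 ± 0.52 on the log2 scale, adjusted p = 4.5e-06), Mir127 (4.53 ± 0.33, adjusted p = 2.2e-08) and Mir3072 (3.35 ± 0.31, adjusted p = 3.9e-07). Over all genes 39.7% were called higher, but that share is no like reference. Of 54 listed small RNA genes of this stretch, only Mir3072 passed the low-count filter in the wild type cortex libraries alone. Nearly all of the 15 thus entered this test through the nuclei, where they are high, and their count carries no support.

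Between the nuclei labelled Dnmt3a1-/- and wild type nuclei, edgeR called none of 18 such genes. Of these, 15 had a positive log2 fold change, at a median of 0.51 against -0.01 over all genes tested. The genes are neighbours read in the same libraries and are not independent of each other, so this count and median carry no test. The 31 listed genes of the Mirg stretch summed to 23.3 and 19.1 CPM in the nuclei labelled Dnmt3a1-/- and to 17.4 and 13.2 CPM in wild type nuclei, and the 17 small nucleolar RNA and microRNA genes of the Rian stretch to 10.6 and 11.0 CPM against 8.70 and 7.23 CPM. Neither sum overlapped between the groups, as was so for 38.5% of all genes, while the genes opposite Rtl1 overlapped. Whether the stretches differed was not tested. Mir541 (1.14 ± 0.30, adjusted p = 0.16) and Mir382 (1.32 ± 0.39, adjusted p = 0.24) had the smallest p among them. These sums were formed after the counts were seen and carry no test. In the cortex files, where Rian and Mirg have no row, the genes of the Mirg stretch summed to 1.36 to 2.02 CPM in Dnmt3a1-/- and 0.98 to 1.79 CPM in the plain wild type series, and those of the Rian stretch to 0.30 to 0.84 CPM against 0.57 to 0.84 CPM. The genes opposite Rtl1 did not overlap there, at 0.46 to 0.77 CPM in Dnmt3a1-/- against 0.25 to 0.28 CPM, as was so for 36.1% of all genes. These sums came from 9 to 17 counts against 5 to 7 per library. The Dnmt3a1-/- range overlapped the other wild type series, at 0.33 and 0.47 CPM (r) and 0.37 to 1.13 CPM (n).

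Genes of the same kinds outside the domain moved in both directions in Dnmt3a1-/- cortex. Over all genes 17.9% were called there, against which the counts of the lists are to be read. Of 51 tested imprinted genes elsewhere, 8 rose and 8 fell, with a median log2 fold change of 0.01, against 0.01 over all genes tested: Peg3, a zinc finger protein, rose by 0.49 ± 0.07, and Mest, a hydrolase-like protein, Sgce, a sarcoglycan, and Dhcr7, the last enzyme of cholesterol synthesis, fell by 0.69 ± 0.09, 0.60 ± 0.09 and 0.67 ± 0.08. Of 22 tested genes that flank the domain, Degs2 rose by 0.47 ± 0.13 and Hsp90aa1 and Wars fell by 0.44 ± 0.08 and 0.25 ± 0.06. The lists were chosen with earlier results of these data known.

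The medians of the next 3 lists lay between 0.04 and 0.07. Of 33 tested genes of the Notch pathway, in which Dlk1 acts, 2 rose (the receptors Notch2, by 0.40 ± 0.08, and Notch4, by 0.34 ± 0.10) and 4 fell, among them Dner, a ligand-like protein. Of 23 tested thyroid hormone genes, the pathway of Dio3, 3 rose and 4 fell: the receptor Thra rose by 0.37 ± 0.06 and the thyroid hormone transporter Slco1c1 fell by 0.46 ± 0.07. Of 13 tested genes derived from retrotransposon gag, as Rtl1 is, 2 rose (Pnma3 and Rtl9) and 2 fell (Pnma1 and Pnma2). In Dnmt3a2-/- and Dnmt3a1_delta_N cortex no gene of these 5 lists was called. Over all genes only 1 of 15929 and 0 of 15881 were called there, so this draws no contrast with Dnmt3a1-/- cortex.

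In Dnmt3a1-/- hippocampus, where 2.52% of all genes were called, Peg3 rose by 0.39 ± 0.09 and Sgce fell by 0.59 ± 0.12 among 51 imprinted genes, and Pnma3 rose by 0.53 ± 0.10 among 14 derived from retrotransposon gag. In the nuclei labelled Dnmt3a1-/-, 1 of 49 imprinted genes outside the domain, the potassium channel gene Kcnk9, was called (1.45 ± 0.22, adjusted p = 0.0096).

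Some other long noncoding RNAs, from a list set up for nuclear RNAs, were also higher. Wild type nuclei stood above wild type cortex for Snhg11, Malat1, Gas5 and Firre of this list. They did not for Neat1 (21.2 and 26.2 CPM against 17.7 to 39.9 CPM) or Pantr1 (8.58 and 8.02 CPM against 35.7 to 63.4 CPM). In Dnmt3a1-/- cortex 4 of 7 tested rose and none fell, where 8.95% of all genes were called higher, at a median log2 fold change of 0.38: Snhg11 by 0.64 ± 0.08, Neat1, the scaffold of paraspeckles, by 1.08 ± 0.12, Gas5 by 0.39 ± 0.07 and Malat1, an RNA of nuclear speckles, by 0.38 ± 0.10. In Dnmt3a1-/- hippocampus 4 of 12 rose and none fell (median 0.26, with 1.69% of all genes called higher), Firre by 0.67 ± 0.10, Miat by 0.53 ± 0.10, Neat1 by 0.81 ± 0.15 and Snhg11 by 0.71 ± 0.15. In the nuclei labelled Dnmt3a1-/- none of 7 was called. Like Meg3, Snhg11 differed between the wild type series: it measured 1262 to 1404 CPM in Dnmt3a1-/- cortex, against 746 to 934 CPM in the plain series, 1259 and 1491 CPM in the r series and 1316 to 1748 CPM in the n series. Malat1, at 238 to 275 CPM in Dnmt3a1-/- cortex, overlapped the n series (212 to 271 CPM) and stood above the r series (178 and 175 CPM). Neat1 and Gas5 in Dnmt3a1-/- cortex lay above all 8 wild type cortex libraries.

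**Figure D4:**
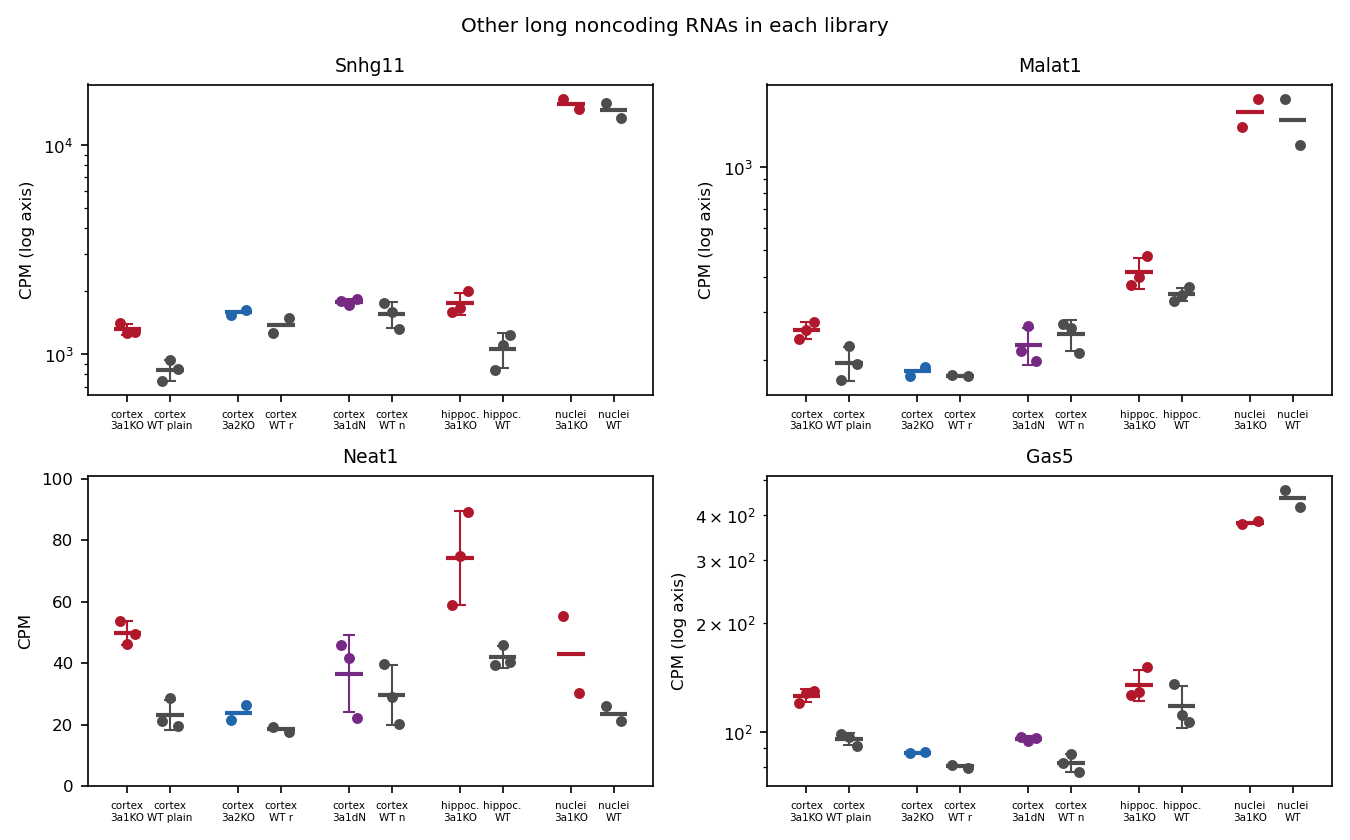
Snhg11, Malat1 and Gas5 (log axes) and Neat1 (linear axis) in CPM for each of the 26 libraries, with each mutant left of its own wild type series. Points are libraries, horizontal lines group means and vertical bars the SD where a group has 3 libraries; cortex Dnmt3a1-/- lies above the plain series for each RNA, and Snhg11, Malat1 and Gas5 are highest in the nuclei.

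Over the 16 cortex libraries, each centred on its comparison (a mutant and its own wild type series), the genes most like Meg3 among 13253 ranked were Pabpn1 (Pearson's r = 0.980), Snhg11 (0.969), Snrnp70 (0.962), Col6a1 (0.956) and Rps6kb2 (0.953). The genes most like Dlk1 were Ugt1a6a (0.951), Samd14 (0.948), Elmod3 (0.931), Myo5b (0.930) and Tprgl (0.926), and those most like Dio3 were Plekhj1 (0.892), Mrps28 (0.848), Ndufb7 (0.822), Tmem91 (0.822) and Spindoc (0.818). Between members r was 0.760 for Dlk1 with Meg3 (Spearman's rho 0.853; r = 0.841 without the 2 libraries farthest from the median of Dlk1 and 0.723 without those farthest from that of Meg3), 0.122 for Dlk1 with Dio3 and -0.078 for Meg3 with Dio3. These values describe shared patterns, include the differences between mutant and wild type, and carry no test.

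Other measures also differed between libraries of these comparisons, some with overlap between mutant and wild type. The share of uniquely mapped reads that fell in no gene was 10.3% to 10.8% in Dnmt3a1-/- cortex against 9.38% to 10.2% in the plain series, and 9.69% to 10.3% in Dnmt3a1-/- hippocampus against 8.41% to 8.74% in wild type. Of 10 neuron markers, 5 fell in Dnmt3a1-/- cortex, and of 14 mural and meningeal markers 4 fell, at summed levels of 600 to 661 CPM against 742 to 1049 CPM. Over all genes 17.9% were called there in either direction, and 8.95% were called higher. Marker lists of other cell types and brain regions were also set up and are not given here. None of 14 choroid plexus markers was called, but they summed to 1414 to 2849 CPM in Dnmt3a1-/- cortex against 567 to 1458 CPM, and to 396 to 1558 CPM in Dnmt3a1_delta_N cortex against 336 to 838 CPM, with none of the 14 at 0 throughout a group. In hippocampus their median log2 fold change was 1.66 over 12 tested, none called and all 12 positive, at summed levels of 222 to 2849 CPM in Dnmt3a1-/- against 289.5 to 371 CPM in wild type. Mutant and wild type overlapped in each of these choroid plexus sums. Ttr, 1 of the 14 markers, measured 10.8 and 1518 CPM in Dnmt3a2-/- cortex, against 254 and 18.5 CPM in the r series. Of 21 hypothalamic and midbrain markers, 6 could be tested and 1 (Ddc) rose, at summed levels of 31.8 to 44.8 CPM against 22.9 to 25.0 CPM, with 1 marker at 0 in every Dnmt3a1-/- library and 3 in every plain wild type library. The part of these in the levels of Dlk1 and Meg3 was not tested.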

How the data were processed

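Per the labels' protocols, the RNA libraries came from a kit for stranded mRNA. Reads were aligned to mm9 with STAR 2.5.4a and counted with HTSeq 0.11.0, per the submitters' processing notes; the annotation release and the strand setting are not given in the sources used here, so Rtl1 and the microRNA genes opposite it may share reads. Each deposited file holds the raw gene counts of 1 library, and 21.1% to 37.0% of reads per library fell in lines that name no gene and were left out.

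Symbols were matched by identifier (32620 of 37310 in the cortex and nuclei files, 55394 of 55487 in the hippocampus files). Genes were tested with edgeR 4.0.16 in R 4.3.3 (filterByExpr, TMM, robust quasi-likelihood F-test, group means only), with Benjamini-Hochberg adjustment over all genes tested in a comparison, and called at an adjusted p under 0.05, after the same script was tested on simulated data. Comparisons between hippocampus and cortex used the 32601 shared identifiers. Fold changes are log2 of the first group over the second, with their SE. CPM was computed from raw gene totals. Alternatives were DESeq2 1.42.0, RLE scaling, no filter on low counts, the replicate number as a block, other wild type controls, and leaving out each library. Likeness was Pearson's r of log2(CPM + 1) for genes with a mean of at least 1. The rule named all 6 members, Dnmt3a, the 5 most like genes and up to 4 called genes per list. The members and lists were chosen with earlier results of these data known.

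Same-numbered mutant and wild type libraries deviated together from their group means in cortex Dnmt3a1-/- (correlations across genes of 0.231, 0.380 and 0.180) and Dnmt3a1_delta_N (0.369, 0.247 and 0.434), so the replicate block is a paired fit there, from these values and not from the labels. The values reported come from the fits without the block unless it is named. In hippocampus same-numbered libraries did not deviate together throughout (-0.039, 0.291 and 0.041). In Dnmt3a2-/- (0.129) and nuclei (0.287), 2 libraries per group force correlations of equal size and opposite sign. These values cannot tell whether the libraries there are pairs. Intervals and floors cover counting error only.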

Additional observations from a re-analysis of the deposited data

How the results depend on the processing

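In cortex Dnmt3a1-/-, Dlk1 was called under 11 of 11 alternatives and Meg3 under 10, so that 1 member remained against all 8 wild type libraries. The single call in hippocampus became 0 with a replicate block (adjusted p = 0.054) and 0 to 1 when a library was left out. In nuclei the count of 0 became 1 (Dlk1, log2 fold change 0.79, adjusted p = 0.018) with a replicate block. That block also raised the share of all genes called to 4.67%, against 0.246%. Without wild type nuclei replicate 2 the log2 fold change of Dlk1 was 1.61. The count of members that differed between nuclei and cortex became 1 (Dlk1) with no filter on low counts, where 619 genes were called over all genes, against 59. The replicate block changed no other call of a member in a mutant comparison. Whether same-numbered libraries in hippocampus, Dnmt3a2-/- and nuclei are pairs is not known (correlations of deviations of 0.129 in Dnmt3a2-/- and 0.287 in nuclei). In wild type nuclei over cortex, Dlk1 passed against the r series (1.72) and the n series (1.56) and Dio3 against the plain series (-0.76). DESeq2 gave no adjusted p for Dlk1 in Dnmt3a1_delta_N. Where leaving out a library left 1 in a group, that library was assumed to vary like the other group. Dlk1 had 13 to 304 counts per library and Dio3 9 to 85, which limits their precision.

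Signs turned in values that were not called. Against all 8 wild type libraries Dio3 in cortex Dnmt3a1-/- was 0.12 and Dlk1 in Dnmt3a2-/- was -0.41 on the log2 scale. Against the n series, Meg3 in wild type hippocampus was -0.20 and Dio3 in wild type nuclei 0.036. With DESeq2 the effect on Dio3 in hippocampus minus cortex was 0.092. When libraries were left out one at a time, Dio3 ran from -0.76 to 0.062 in cortex Dnmt3a1-/-, -0.36 to 0.69 in Dnmt3a2-/-, -0.76 to 0.15 in hippocampus and -0.53 to 0.48 in nuclei. Dlk1 in Dnmt3a2-/- ran from -0.21 to 0.96 and Rtl1 in nuclei from -0.72 to 0.22. The effect in hippocampus minus cortex ran from -0.18 to 0.022 for Meg3 and -0.53 to 0.42 for Dio3, and that on Dio3 in nuclei minus cortex from -0.29 to 0.83. The cause was not tested.

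Over all genes, cortex Dnmt3a1-/- gave 1599 calls without wild type replicate 3 and 1835 without mutant replicate 2, against 2845, and 4941 with the block. Over the alternatives Dnmt3a2-/- gave 1 to 139, hippocampus 86 to 1039 (396 as reported), nuclei 4 to 740 (39), nuclei minus cortex 16 to 901 (59) and Dnmt3a1-/- minus Dnmt3a1_delta_N 4 to 479 (17).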

Other observations

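The ratio of Meg3 to Dlk1 counts within a library was also formed, after the counts were seen, and was not tested. It ran from 148.5 to 244 in cortex Dnmt3a1-/- against 384 to 819 in the plain wild type series, from 1611 to 1860 in Dnmt3a2-/- against 1279 and 3167 in the r series, and from 1057 to 1733 in Dnmt3a1_delta_N against 1872 to 2696 in the n series. In hippocampus it ran from 207 to 339.5 in Dnmt3a1-/- against 200.3 to 1104 in wild type, and in nuclei it was 4550 and 4616 in the libraries labelled Dnmt3a1-/-, against 4012 and 13470 in wild type. The cortex ranges of Dnmt3a1-/- and Dnmt3a1_delta_N thus lay below those of the wild type series set against them, and the other groups overlapped. The ratio restates the counts of Dlk1 and Meg3 given above, and no share over other pairs of genes was formed. The plain series itself lay below the r and n series. Dnmt3a1-/- lay below every wild type cortex series, but Dnmt3a1_delta_N lay above the plain series, so its order depends on the control. The ratio is not corrected for gene length.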
